A study of Mus musculus with 3 samples.

Results

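Stra8, Rec8, Sycp1, Sycp2, Sycp3, Stag3, Smc1b, Hormad1, Dmc1 and Spo11 are 10 genes of meiotic entry and of the meiotic chromosome axis, taken by name from the 18738 genes of the count tables. Their UMI (unique molecular identifier) counts were examined in fetal ovarian somatic cells (FOSCs) of CD1 mice, a preparation of dissociated E12.5 ovaries from which SSEA1+ and CD31+ cells, and so most germ cells, had been depleted by magnetic sorting. Embryos of 10 pregnant mice were pooled for each of the 3 lots (26, 29 and 30), which were frozen, thawed and profiled by 10x Genomics single-cell RNA sequencing. The lots belong to 1 condition, so they served as replicates (n = 3 lots), and each comparison set classes of cells against each other. Every lot gave both sides of a comparison, but the main fit had no term for the lot. Germ cells that escaped the depletion were recognized by 5 or more UMIs of Dazl and at least 1 of Ddx4, RNA-binding and RNA helicase genes of the germ line, and no member entered this gate.

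In the fetal ovary, germ cells stop dividing by mitosis around this stage and enter meiotic prophase. Retinoic acid and BMP signals from the gonad induce Stra8, whose product acts with MEIOSIN as a transcription factor for meiotic genes. Chromosomes are then built on a proteinaceous axis: meiotic cohesin, with REC8, STAG3 and SMC1B in place of the mitotic RAD21, STAG1 or STAG2 and SMC1A, carries the HORMA-domain protein HORMAD1 and the axial elements SYCP2 and SYCP3. SYCP1 later joins the paired axes as the transverse filament of the synaptonemal complex, SPO11 makes the DNA double-strand breaks that start recombination, and DMC1 is the meiotic recombinase that repairs them.

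The tables held 87494974 to 141920060 UMIs per lot. After removal of barcodes under 200 or over 9000 genes or over 10% mitochondrial UMIs, 28971 of 29103 barcodes remained. Germ cells were 672 of 9711 kept cells in lot 26 (6.92%, with 6.42% to 7.44% as the exact Clopper-Pearson 95% interval), 303 of 8553 in lot 29 (3.54%, 3.16% to 3.96%) and 365 of 10707 in lot 30 (3.41%, 3.07% to 3.77%). Intervals cover counting error only. Germ cells were deeper than the other cells, with medians of 18383 to 24387 UMIs against 8785.5 to 11411. Among the 1340 germ cells, 6 had a barcode sequence that also occurred in another lot. Of the 1340, 1327 lay in the 1 cluster named germ-like from its markers, in a clustering that did not use the members, and 140 further cells of that cluster missed the gate. A Sertoli-like cluster held 89, 284 and 16 cells of lots 26, 29 and 30, and all but 1 of them counted as other cells. The paper reports Sertoli cells as contaminants of the lots and left them out. Whether some germ cells were male was not tested. The germ markers were present in gated cells of every lot, with Dppa5a, a pluripotency-associated gene of early germ cells, in 99.95% ± 0.0859 of them (SD, n = 3 lots). Tfap2c was in only 38.6% ± 0.617, Pou5f1 in 33.3% ± 5.14 and Nanos3 in 32.2% ± 3.91. Nanos3 separated the cells poorly, at 18.6 CPM in germ cells and 10.8 CPM in other cells on average.

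RefSeq promoters, the 250 bases before the RefSeq start on GRCm38.p6, were available for 9 of the 10 members and were searched on both strands for 4 short motifs: the E-box CACGTG, the E2F6-type motif GCGGGA, the nuclear receptor half-site AGGTCA, and CNCCTCAG, the letters given for STRA8 and MEIOSIN binding. All 9 are shown, with these letters in capitals (an opposite-strand GCGGGA reads TCCCGC). Members that were called in the Stra8 comparison given further on can thus be compared with Stag3, which was not. The Stag3 call depended on the fit, with an edgeR adjusted p of 0.0549, and 0.00243 with the lot as a block. No match overlapped a match of another motif.
Stra8, chr6:34920698-34920947, plus strand: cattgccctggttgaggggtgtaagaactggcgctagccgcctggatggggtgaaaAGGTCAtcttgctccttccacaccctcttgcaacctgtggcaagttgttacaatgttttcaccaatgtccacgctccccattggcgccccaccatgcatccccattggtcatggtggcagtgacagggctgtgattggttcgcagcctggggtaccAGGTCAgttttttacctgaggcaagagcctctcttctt
Rec8, chr14:55617916-55618165, plus strand: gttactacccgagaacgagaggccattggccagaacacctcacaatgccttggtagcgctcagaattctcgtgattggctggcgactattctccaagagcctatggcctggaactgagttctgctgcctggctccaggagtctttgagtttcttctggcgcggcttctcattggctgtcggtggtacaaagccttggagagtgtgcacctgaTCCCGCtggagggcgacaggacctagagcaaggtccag
Smc1b, chr15:85131958-85132207, minus strand: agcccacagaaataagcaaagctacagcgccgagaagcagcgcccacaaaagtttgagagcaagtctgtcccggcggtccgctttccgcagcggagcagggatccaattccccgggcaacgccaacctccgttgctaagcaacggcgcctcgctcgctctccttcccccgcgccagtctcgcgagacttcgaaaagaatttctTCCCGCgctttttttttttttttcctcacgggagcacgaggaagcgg
Stag3, chr5:138280259-138280508, plus strand: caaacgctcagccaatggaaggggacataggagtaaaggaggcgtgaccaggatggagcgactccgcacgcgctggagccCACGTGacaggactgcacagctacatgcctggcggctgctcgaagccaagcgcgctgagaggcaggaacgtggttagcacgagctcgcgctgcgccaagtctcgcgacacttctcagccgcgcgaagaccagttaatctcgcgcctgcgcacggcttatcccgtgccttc
Hormad1, chr3:95559427-95559676, plus strand: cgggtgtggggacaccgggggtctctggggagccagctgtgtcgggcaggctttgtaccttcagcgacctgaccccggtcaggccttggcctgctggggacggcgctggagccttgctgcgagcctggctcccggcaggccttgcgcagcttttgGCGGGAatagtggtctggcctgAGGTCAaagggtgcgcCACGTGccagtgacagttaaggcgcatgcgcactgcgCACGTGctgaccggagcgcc
Sycp1, chr3:102936101-102936350, minus strand: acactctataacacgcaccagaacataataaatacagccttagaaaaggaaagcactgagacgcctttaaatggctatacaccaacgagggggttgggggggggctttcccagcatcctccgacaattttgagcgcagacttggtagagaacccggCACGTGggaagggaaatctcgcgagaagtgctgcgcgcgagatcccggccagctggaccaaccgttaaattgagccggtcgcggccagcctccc
Sycp2, chr2:178407659-178407908, minus strand: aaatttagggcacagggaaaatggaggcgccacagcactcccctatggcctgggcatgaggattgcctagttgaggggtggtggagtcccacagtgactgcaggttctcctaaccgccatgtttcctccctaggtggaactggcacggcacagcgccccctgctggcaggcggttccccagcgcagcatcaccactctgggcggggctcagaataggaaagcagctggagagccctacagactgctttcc
Sycp3, chr10:88459337-88459586, plus strand: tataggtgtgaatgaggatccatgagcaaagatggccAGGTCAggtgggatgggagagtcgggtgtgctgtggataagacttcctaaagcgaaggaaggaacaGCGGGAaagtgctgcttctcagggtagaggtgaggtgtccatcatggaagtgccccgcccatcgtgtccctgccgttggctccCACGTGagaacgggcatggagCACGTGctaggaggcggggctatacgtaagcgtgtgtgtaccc
Dmc1, chr15:79605110-79605359, minus strand: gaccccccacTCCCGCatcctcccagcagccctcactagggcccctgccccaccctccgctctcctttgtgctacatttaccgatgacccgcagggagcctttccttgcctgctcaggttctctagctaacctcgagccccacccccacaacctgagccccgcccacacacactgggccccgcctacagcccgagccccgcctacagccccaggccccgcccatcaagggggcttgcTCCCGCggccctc
The E-box was found in 4 of the 9 promoters, those of Stag3, Hormad1, Sycp1 and Sycp3, against 6.02% of all 32851 RefSeq promoters of this length. GCGGGA was found in 5 of the 9, those of Rec8, Smc1b, Hormad1, Sycp3 and Dmc1, against 16.9% of all, and AGGTCA in 3 of the 9, those of Stra8, Hormad1 and Sycp3, against 14.0%. CNCCTCAG was in none of the 9 windows and in 6.42% of all promoters. The Sycp2 window held none of these motifs. The RefSeq starts of Stra8, Rec8, Smc1b, Stag3, Sycp2 and Sycp3 lie inside the GENCODE genes given with their levels, and other starts of these genes were not searched. Matches are letters in a window, not evidence of binding.

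Germ cells were first compared with all other kept cells, to show how far the members separate the germ line from the soma. Each of the 10 members was higher in germ cells in 3 of 3 lots, by 4.06 to 7.41 on the log2 scale, and each passed the test. Background of the same test was high, since 35.9% of the 15291 genes tested were called higher in germ cells, so the call by itself says little about the members and the size of the difference says more: the members' median log2 fold change was 6.32, against -0.06 over all genes tested. Levels are CPM of UMIs summed per class and lot, and fold changes, standard errors (SE) and Benjamini-Hochberg adjusted p-values are from edgeR's quasi-likelihood test.

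Stra8 (chr6:34920163-34939344) was at 764, 597 and 692 CPM in germ cells of lots 26, 29 and 30, and at 8.25, 2.85 and 3.55 CPM in other cells. The groups lay far apart in every lot, with a log2 fold change of 7.19 (SE 0.40, edgeR adjusted p = 7.18e-07). Of all Stra8 UMIs in kept cells, 93.6%, 94.2% and 93.5% were in germ cells, which made up only 3.41% to 6.92% of the cells.

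Among the cohesin genes, Smc1b (chr15:85064689-85131964) was at 622, 734 and 534 CPM in germ cells and 6.84, 3.82 and 2.76 CPM in other cells, a log2 fold change of 7.21 (SE 0.37, edgeR adjusted p = 4.83e-07). Stag3 (chr5:138280240-138312393) was at 167, 128 and 164 CPM against 5.13, 3.54 and 3.78 CPM, a log2 fold change of 5.25 (SE 0.15, edgeR adjusted p = 8.47e-08). Rec8, the kleisin that closes the meiotic cohesin ring (chr14:55618037-55625395), was at 171, 147 and 171 CPM against 13.5, 7.41 and 9.37 CPM. Its log2 fold change of 4.06 (SE 0.19, edgeR adjusted p = 3.43e-07) was the smallest of the 10 and its level outside the germ cells the highest, and only 57.3% to 66.7% of its UMIs lay in germ cells.

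The mitotic counterparts did not share this pattern. Smc3, a subunit common to mitotic and meiotic cohesin, was higher in germ cells by 1.49 on the log2 scale, Stag1 by 1.13 and Rad21 by 0.44, whereas Stag2 fell by 1.12 (edgeR adjusted p = 5.77e-06, 5.97e-06, 0.0012 and 5.34e-06). Smc1a was at 216 ± 4.63 CPM in germ cells and 206 CPM in other cells on average and was not called (log2 difference 0.11, edgeR adjusted p = 0.337). The cohesin genes thus ranged from Smc1b at 7.21 to Stag2 at -1.12.

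The axis and synaptonemal complex genes were separated by 6.11 to 7.41 on the log2 scale. Hormad1 (chr3:95559677-95587671) was at 142, 158 and 134 CPM in germ cells against 1.19, 0.974 and 0.539 CPM, and its log2 fold change of 7.41 (SE 0.27, edgeR adjusted p = 1.61e-07) was the largest of the 10. Sycp3 (chr10:88459569-88473236) was at 346, 348 and 288 CPM against 5.08, 2.72 and 3.20 CPM, a log2 fold change of 6.54 (SE 0.25). Sycp1 (chr3:102818499-102936100) was at 132, 115 and 114 CPM against 1.33, 1.07 and 0.661 CPM, a log2 fold change of 6.95 (SE 0.23). Sycp2 (chr2:178345293-178407685) was at 31.5, 24.6 and 24.9 CPM against 0.709, 0.123 and 0.349 CPM, a log2 fold change of 6.11 (SE 0.39). All of Sycp3 lies within Chpt1 on the opposite strand (13668 bases), whose UMIs numbered 19283 in kept cells, and the strand used in counting is not given in the sources used here, so the Sycp3 level is uncertain by reads of Chpt1.

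The recombination genes were low. Dmc1 (chr15:79561497-79605109) was at 26.8, 21.0 and 22.6 CPM in germ cells against 1.16, 0.887 and 0.721 CPM, a log2 fold change of 4.72 (SE 0.18). Spo11 (chr2:172977700-172993576) was at 6.44, 3.94 and 6.48 CPM against 0.230, 0.123 and 0.152 CPM, a log2 fold change of 5.09 (SE 0.30), and rests on few molecules, with 35 to 136 Spo11 UMIs per lot. Germ cells with a UMI were 38.7% ± 5.49 (SD, n = 3 lots) for Dmc1 and 12.1% ± 4.17 for Spo11, against 99.1% ± 0.544 for Smc1b.

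**Figure D1:**
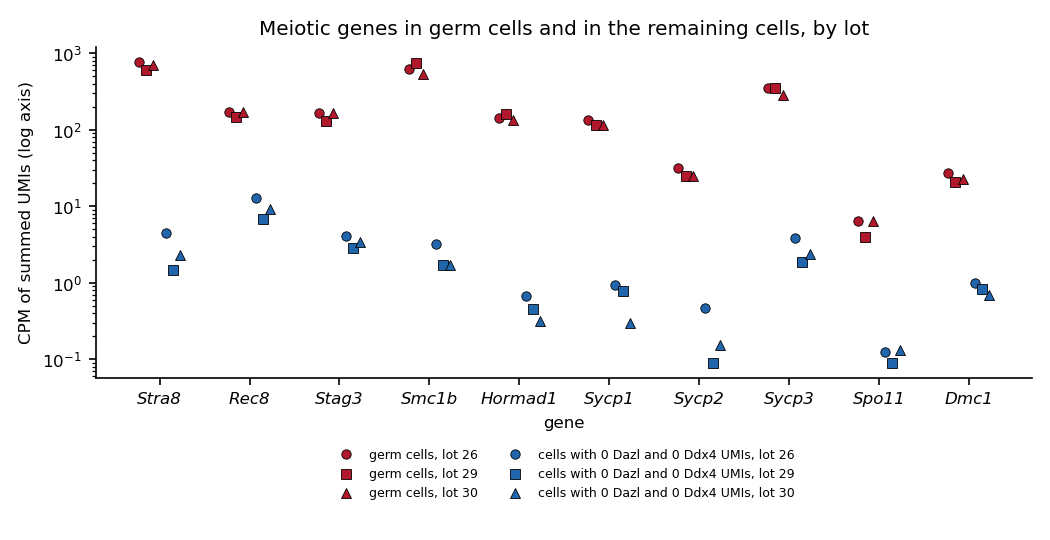
CPM of summed UMIs (log axis) of each member in germ cells (red) and in kept cells with 0 Dazl and 0 Ddx4 UMIs (blue), with 1 point per lot (circle, square and triangle for lots 26, 29 and 30). Red points lie above blue points for all 10 genes, and the gap is narrowest for Rec8, at 171, 147 and 171 against 12.8, 6.81 and 9.14 CPM.

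Other genes of the meiotic program were read from lists, whose counts also stand against the 35.9% of all genes called higher. All 9 tested genes of the synaptonemal complex and telomere list rose in germ cells, among them Tex12 by 7.19 and Syce1 by 6.31 on the log2 scale. So did all 9 tested meiotic regulators, among them Mael by 6.55 and Zglp1, a BMP-responsive factor of oogenic fate, by 6.27, and 26 of 28 recombination genes, among them Hsf2bp by 6.20. Of 15 germ cell and pluripotency genes 15 rose, among them Pou5f1 by 6.46 and Dppa2 by 6.18. Of the 11 tested genes of retinoic acid response and transport, 6 fell and 3 rose, with the retinaldehyde reductase Dhrs3 at -2.48. Of all 15291 genes tested, 5952 were called lower in germ cells, so the background of falls was high too. Replication genes were higher in 12 of 15 cases and G2 and M phase genes in 11 of 13. Of the early oocyte genes, 4 of 6 rose and 1 fell (2 fell with the lot as a block), with Figla at 7.01.

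Cells outside the gate were next examined by class, leaving out every cell with a Dazl or Ddx4 UMI, for members whose RNA is found in the soma. The 8 germ markers were read in the same cells for comparison, and they differed widely. Their level, as percent of that in germ cells of the same lot, was 0.219% to 0.538% for Dppa5a, 0.290% to 0.809% for Dppa3, 0.342% to 0.546% for Pou5f1, 0.336% to 1.198% for Mael, 0.543% to 1.401% for Sall4, 1.67% to 2.43% for Tfap2c, 7.31% to 9.696% for Dnd1 and 56.9% to 58.9% for Nanos3. In pre-granulosa-like, epithelial-like and stromal-like cells, Dppa5a was at 0.201% to 0.566% of its germ cell level in the same lot, and Stra8 at 0.212% to 0.616%. At 4000 UMIs per cell, a Stra8 UMI was found in 1.25% ± 0.674 of cells with 0 Dazl and 0 Ddx4 UMIs, and a Dppa5a UMI in 1.32% ± 0.763, against 78.0% ± 3.27 and 92.7% ± 2.43 of germ cells. The level of Stra8 in these cells was thus close to that of Dppa5a, among the lowest of the germ markers, and whether it comes from free RNA was not tested.

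Over all cells with 0 Dazl and 0 Ddx4 UMIs, 7 members were above Dppa5a in each lot: Rec8 (7.50%, 4.65% and 5.36% of germ cells), Dmc1 (3.76%, 3.92% and 3.07%), Stag3 (2.43%, 2.23% and 2.098%), Spo11 (1.95%, 2.28% and 2.02%) Sycp2 (1.501%, 0.366% and 0.624%), Sycp3 (1.098%, 0.543% and 0.822%) and, by the least, Stra8 (0.589%, 0.248% and 0.332%). Spo11 was near its detection limit, at 0.0900 to 0.131 CPM. The count of 7 depends on Dppa5a, among the lowest of the 8 germ markers. Only Rec8 and Dmc1 were above Tfap2c in each lot (2.43%, 1.67% and 2.28%), and no member was above Dnd1 or Nanos3 in any lot. Rec8, Dmc1 and Stag3 differed between the large classes, with Rec8 highest in pre-granulosa-like cells and Stag3 and Dmc1 in stromal-like cells. Rec8 was at 20.2, 13.6 and 14.5 CPM in pre-granulosa-like cells of lots 26, 29 and 30, which is 11.8%, 9.28% and 8.48% of its germ cell level. In stromal-like cells it was at 5.66, 2.15 and 3.97 CPM, or 3.31%, 1.46% and 2.33%. The ranges of these classes did not overlap, and at 4000 UMIs per cell 7.12%, 5.12% and 4.99% of pre-granulosa-like cells had a Rec8 UMI against 2.00%, 0.407% and 1.34% of stromal-like cells. Median depths were 10579, 8306.5 and 11202 UMIs in the former and 9306, 7791 and 9982 in the latter.

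Dmc1 had the opposite order at a far lower level, with 1.66, 1.96 and 1.196 CPM in stromal-like cells (6.22%, 9.36% and 5.29% of germ cells) and 0.670, 0.217 and 0.472 CPM in pre-granulosa-like cells. It rested on 31 to 37 UMIs per lot in stromal-like cells. Stag3 was at 5.48, 4.35 and 5.05 CPM in stromal-like cells (3.28%, 3.405% and 3.08% of germ cells), and at 3.72, 2.85 and 2.97 CPM in pre-granulosa-like cells. For both genes the 3 stromal-like values lay above the 3 pre-granulosa-like values. An annotated microRNA, Gm27903, lies within Dmc1 on the same strand and is not in the tables. Class levels are descriptions with no test, and the class names were rebuilt here.

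**Figure D2:**
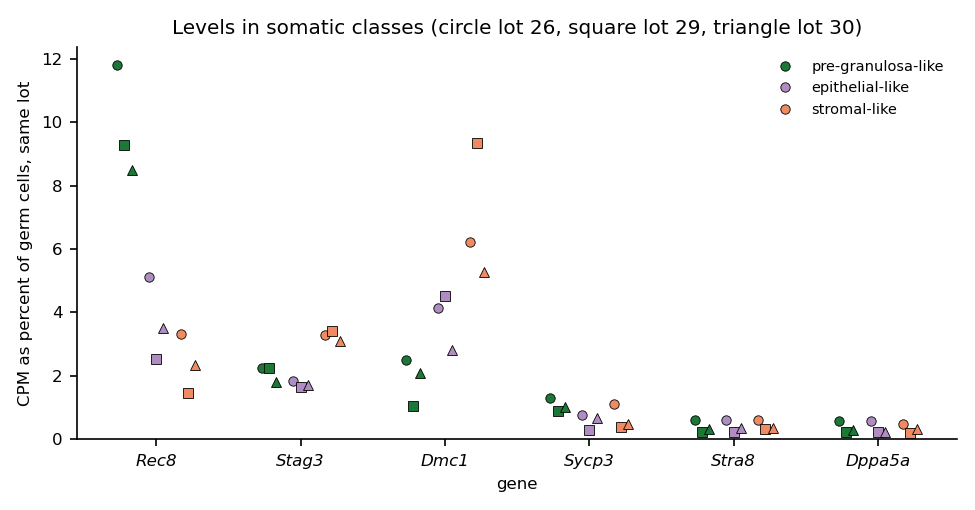
CPM as percent of the germ cell level of the same lot, for 6 genes in pre-granulosa-like (green), epithelial-like (purple) and stromal-like (orange) cells with 0 Dazl and 0 Ddx4 UMIs, with 1 point per lot. Rec8 is highest in pre-granulosa-like cells (8.48% to 11.8%) and Dmc1 in stromal-like cells (5.29% to 9.36%), while Stra8 and Dppa5a are at 0.616% or less in all 3 classes.

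Within the germ cells, the question was which members accompany Stra8. Each germ cell was thinned at random to 10000 UMIs, so that deeper cells would not be positive more often, and 40 shallower germ cells were left out. A Stra8 UMI was then found in 575 of the 649 in lot 26 (88.6%, with 85.9% to 90.9% as the exact Clopper-Pearson 95% interval), 255 of 294 of lot 29 (86.7%, 82.3% to 90.4%) and 318 of 357 of lot 30 (89.1%, 85.4% to 92.1%). These intervals overlap. Stra8 UMIs varied widely between cells, with medians of 7, 5 and 6 and maxima of 40, 34 and 34 UMIs per cell. The share depended on depth, and unthinned cells gave 93.2%, 90.1% and 93.4%. It is the share among germ cells that escaped depletion by SSEA1 and CD31. Whether that depletion removed cells with and without Stra8 alike was not tested.

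Germ cells with Stra8 carried more of the other members. They had a UMI of 5.16, 4.99 and 5.05 of the 9 others on average in lots 26, 29 and 30, against 3.22, 3.03 and 3.21 in cells without Stra8. Cells without Stra8 were seldom blank, with no member at all in 1 of 74, 1 of 39 and 2 of 39 such cells. In cells with 10 or more Stra8 UMIs the average was 6.03, 6.23 and 5.89 members, and 84.1% to 91.9% of these cells had at least 5, against 7.69% to 14.9% of cells with none. All 9 others together with Stra8 were found in 2, 1 and 4 cells.

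Members differed in how closely they followed Stra8. Rec8 was detected in 73.4% ± 2.09 of Stra8-positive and 31.0% ± 7.01 of Stra8-negative germ cells (SD, n = 3 lots). Sycp1 was detected in 55.1% ± 2.65 against 18.3% ± 0.560 and Sycp3 in 85.5% ± 2.19 against 56.0% ± 3.15. Smc1b was near its ceiling on both sides, at 97.4% ± 1.46 against 81.3% ± 2.89, so that its levels carry more than its detection. Hormad1 was in 69.7% ± 1.45 against 49.95% ± 5.62, and Stag3 in 76.5% ± 3.86 against 59.4% ± 12.4. Sycp2 was in 22.0% ± 4.13 against 5.22% ± 2.57, and Dmc1 in 20.7% ± 3.22 against 9.04% ± 5.78. Spo11 was in 6.05% ± 1.54 against 4.77% ± 0.620, and in lot 29 its share was lower beside Stra8 (4.31%) than without it (5.13%). For every member but Spo11 the share was higher beside Stra8 in each of the 3 lots.

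Rec8, Smc1b, Hormad1, Sycp1 and Sycp3 were higher at each step of Stra8 UMIs in all 3 lots. This order was not particular to members. The gate gene Ddx4 also had it in all 3 lots, from 1.51 ± 0.210 UMIs per cell without Stra8 to 3.27 ± 0.267 at 10 or more. From cells with none to cells with 1-2, 3-9 and 10 or more, the mean number of Sycp3 UMIs per cell went from 0.890 ± 0.0767 to 1.35 ± 0.0263, 3.15 ± 0.495 and 6.67 ± 1.33 (SD, n = 3 lots). Rec8 went from 0.393 ± 0.121 to 0.718 ± 0.107, 1.59 ± 0.118 and 2.81 ± 0.136, and Sycp1 from 0.235 ± 0.0489 to 0.375 ± 0.0729, 1.001 ± 0.162 and 2.59 ± 0.422. Between the ends of this range Sycp1 was 10.3 to 11.7-fold higher over the lots, Sycp3 6.20 to 8.27-fold, Rec8 5.48 to 11.04-fold, Smc1b 3.96 to 4.95-fold and Hormad1 2.81 to 3.67-fold. Stag3 was 1.52 to 2.42-fold higher and did not differ between 0 and 1-2 Stra8 UMIs beyond its spread (1.08 ± 0.284 and 1.09 ± 0.0442 UMIs). The Sycp2 and Dmc1 ratios, 5.52 to 26.4 and 2.42 to 11.6, rest on 1 to 6 UMI-bearing cells per lot without Stra8. Spo11 moved by 1.04 to 1.70-fold.

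Rad21, the mitotic kleisin that REC8 replaces in meiotic cohesin, went the other way. Its mean fell from 2.15 ± 0.210 UMIs per cell without Stra8 to 1.52 ± 0.309, 1.10 ± 0.0730 and 0.472 ± 0.241 with increasing Stra8. It was present in 85.1% ± 4.36 of the cells at the low end and 32.5% ± 11.9 at the high end. Smc3, which serves both kinds of cohesin, stayed at 5.72 ± 0.715 and 5.77 ± 0.137 UMIs at these ends.

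**Figure D3:**
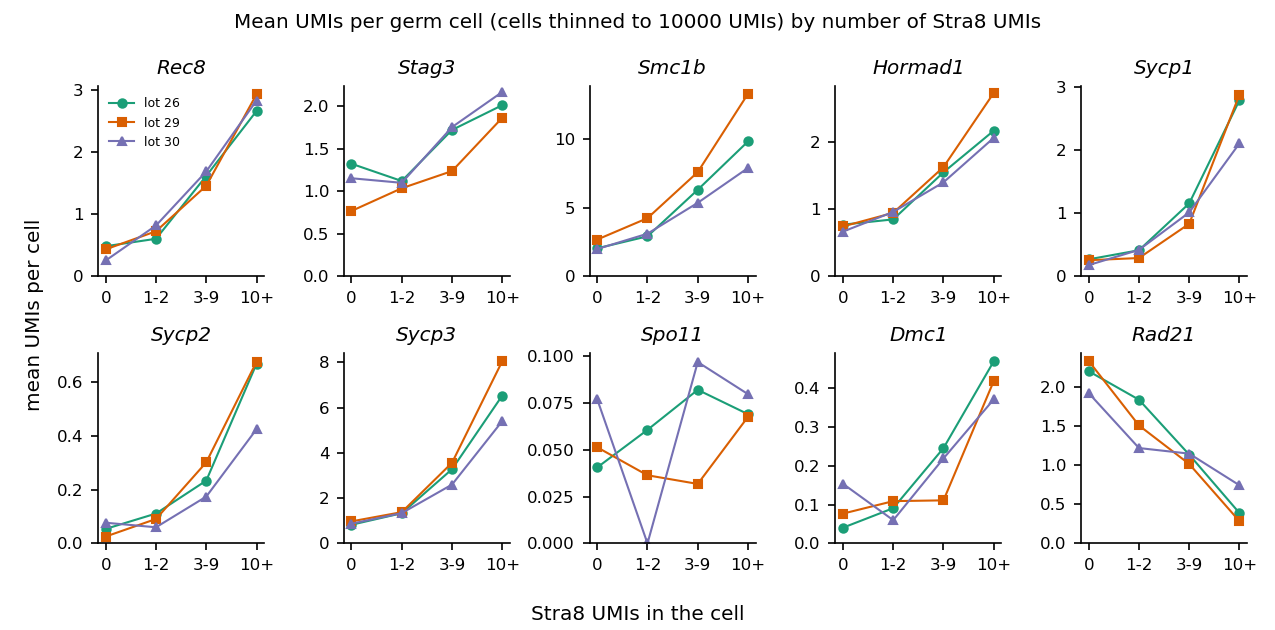
Mean UMIs per germ cell (cells thinned to 10000 UMIs) of 9 members and of Rad21, by the number of Stra8 UMIs in the cell (0, 1-2, 3-9, 10 or more), with 1 line per lot. All 9 members end higher than they start in each lot, Spo11 by 1.04 to 1.70-fold and without order between, while Rad21 falls from 1.92-2.33 to 0.284-0.743 UMIs per cell.

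The sums of cells with and without Stra8 in each lot were tested over all genes. Of 9545 genes tested, 393 rose in Stra8-positive cells (4.12%) and 408 fell, and 7 of the 9 other members were among the genes that rose. The low-count filter can be passed by the sums of 1 side alone. Sycp2 and Dmc1 passed it only through the Stra8-positive side, so their fold changes rest on a sparse other side. The counts rest on all lots, with 67 higher and 64 lower without lot 26 and 120 and 93 without lot 30. The median log2 fold change was 1.66 over the 9 members and 0.01 over all genes tested. Sycp2 had the largest change of the members at 2.63 (SE 0.42, edgeR adjusted p = 0.000704), with 38.8, 36.5 and 24.5 CPM against 5.41, 2.56 and 7.69 CPM in lots 26, 29 and 30. Only 4, 1 and 3 Stra8-negative cells of these lots had a Sycp2 UMI. Sycp1 followed at 2.54 (SE 0.22, edgeR adjusted p = 5.52e-07), with 169, 131 and 131 CPM against 27.0, 25.6 and 17.9 CPM. The difference between the changes of Sycp1 and Sycp2 lay within their SEs.

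Sycp3 rose by 2.16 (SE 0.17, edgeR adjusted p = 2.11e-07) and Rec8 by 2.14 (SE 0.19, edgeR adjusted p = 9.17e-07). Rec8 was at 187, 173 and 196 CPM against 48.6, 43.6 and 25.6 CPM, and Sycp3 at 426, 440 and 340 CPM against 82.4, 97.4 and 87.2 CPM. Smc1b, at 717, 855 and 592 CPM against 205, 269 and 200 CPM, rose by 1.66 (SE 0.18, edgeR adjusted p = 1.56e-05). Hormad1, at 168, 180.0 and 157 CPM against 77.0, 74.4 and 66.7 CPM, rose by 1.17 (SE 0.16, edgeR adjusted p = 0.00024).

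Dmc1 rose by 1.66 (SE 0.40, edgeR adjusted p = 0.0129), from 4.05, 7.69 and 15.4 CPM to 31.0, 20 and 24.8 CPM. Without lot 26 its change was 0.94 (edgeR adjusted p = 0.366), so lot 26 decided that call. Stag3, at 174, 138 and 180 CPM against 132, 76.9 and 115 CPM, was higher in each lot by a fitted 0.53 (SE 0.17) and missed the threshold (edgeR adjusted p = 0.0549). With the lot as a block it passed (edgeR adjusted p = 0.00243), which made 8 of 9 members, and the block raised the genes called to 759 higher and 836 lower. Spo11, at 7.30, 4.31 and 7.55 CPM against 4.05, 5.13 and 7.69 CPM, overlapped between the sides (log2 difference 0.28, SE 0.54, edgeR adjusted p = 0.817), and at 2 or 3 Spo11-bearing cells per lot without Stra8 a difference was not detectable.

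Among the mitotic counterparts, Rad21 fell by 1.203 (SE 0.14, edgeR adjusted p = 3.88e-05), from 220.3, 233 and 192 CPM to 95.5, 91.0 and 102 CPM. Smc1a (-0.21), Smc3 (-0.01), Stag1 (0.18) and Stag2 (0.59) did not pass (edgeR adjusted p = 0.355, 0.974, 0.464 and 0.170). Of the 8 cohesin genes, Rec8, Smc1b and Rad21 passed in this fit.

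Some of the other meiotic genes rose on the Stra8-positive side, where 4.12% of all genes tested were called. Of the synaptonemal complex and telomere list 5 of 7 tested genes rose (6 with the lot as a block), with the central element genes Tex12 at 2.59, 4930447C04Rik (Six6os1) at 1.27, Syce3 at 1.22 and Syce1 at 1.196. Of the recombination list 10 of 25 rose and none fell (12 rose with the block), among them Meiob at 1.89, Tex11 at 1.57, Tex15 at 1.38 and Hsf2bp at 1.08. Of the meiotic regulators 5 of 9 rose (6 with the block), with Taf7l, an X-linked germ cell transcription factor, at 4.71, Gm4969 (Meiosin, the partner of STRA8) at 2.85, Msx1 at 1.59 and Mael at 1.11. Gm4969 was low, at 10.96, 8.63 and 10.1 CPM against 1.35, 0 and 2.56 CPM, and passed the low-count filter only through the Stra8-positive side. Zglp1, named after its values were seen, was at 116 ± 11.8 CPM against 98.0 CPM and was not called (log2 difference 0.19, edgeR adjusted p = 0.535).

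Most pluripotency genes tested fell. Of 15 germ cell and pluripotency genes 12 were lower in Stra8-positive cells (14 with the block) and none was higher, with Nanog at -2.30, Tfap2c at -1.55, Dppa4 at -0.995 and Sall4 at -0.88 on the log2 scale. Of the G2 and M phase genes 6 of 13 fell (9 with the block), among them Ccnb1 at -0.997 and Aurka at -0.87, and none rose. Replication genes divided, with 4 of 15 lower (6 with the block), such as Ung at -0.97, and 1 higher, Uhrf1 at 1.08. None of the 8 tested genes of retinoic acid response and transport passed the edgeR test (1 was lower with the block). The oocyte transcription factor Figla rose by 2.90, and the stem cell factor receptor Kit fell by 0.55. Without Stra8, Figla was at only 4.05, 7.69 and 0 CPM in lots 26, 29 and 30. It passed the low-count filter only through the Stra8-positive side.

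**Figure D4:**
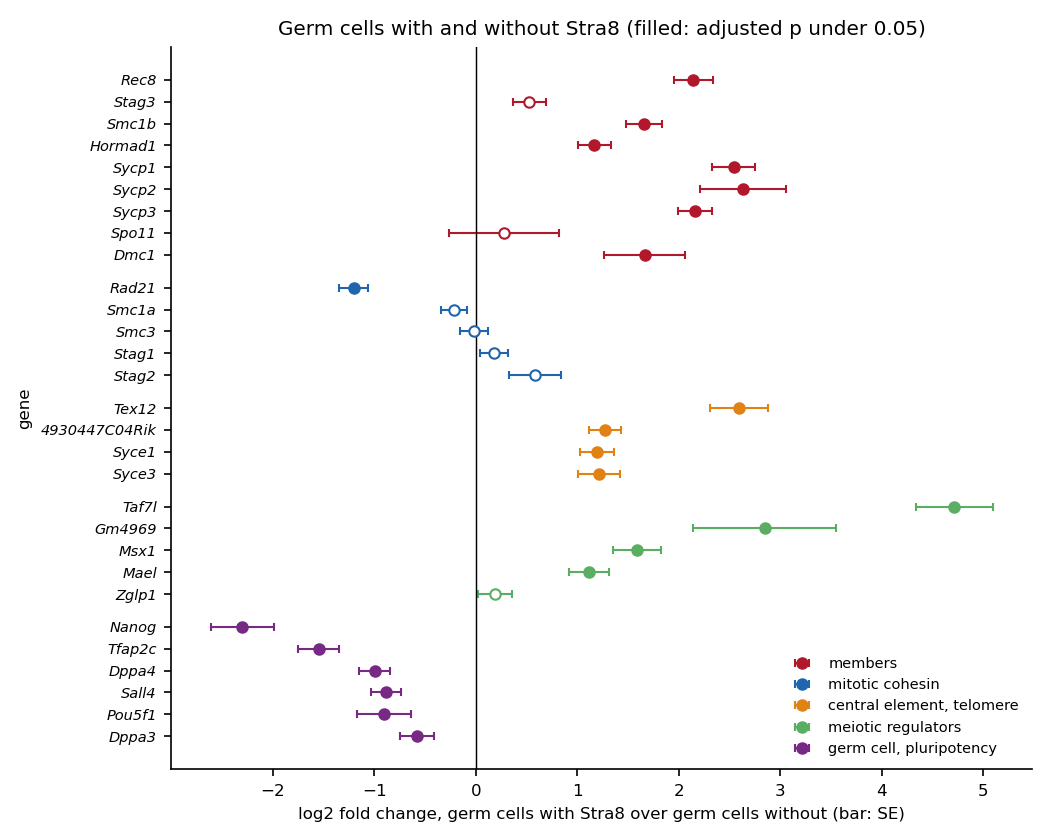
Log2 fold changes (points, with SE bars) of germ cells with Stra8 over germ cells without, for the 9 other members, the mitotic cohesin genes and genes of 3 lists, with filled points for adjusted p under 0.05 (edgeR). Members lie between 0.28 and 2.63, Rad21 at -1.203 and the germ cell and pluripotency genes shown between -2.30 and -0.58.

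Beyond the lists, the genes with the largest rise among those at 20 CPM or more were Taf7l, Gm1564 at 3.27, Ugt8a at 3.17, Spdya at 3.06 and Xlr4b at 2.92. SPDYA activates CDK2 and tethers meiotic telomeres. The largest falls were those of L1td1 at -2.37, an RNA-binding gene of pluripotent cells, Nanog, 1700019D03Rik at -2.03, Rgcc at -1.96 and Fbxo15 at -1.78.

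Other properties of the cells moved with Stra8. The gate gene Ddx4 was at 271 CPM with Stra8 and 151 CPM without (log2 fold change 0.80, edgeR adjusted p = 0.00233). Dazl was at 1042 against 848 CPM and was not called (log2 difference 0.265, edgeR adjusted p = 0.228), but passed with the lot as a block (edgeR adjusted p = 0.00268). Every gate tried asked for a Ddx4 UMI, so how many cells with little Stra8 it left out was not tested. Cells without Stra8 were deeper before thinning, with medians of 26609.5, 20921 and 26487 UMIs against 22735, 18613 and 24262.5. From cells with none to cells with 10 or more Stra8 UMIs, the median mitochondrial share fell from 1.40%, 0.774% and 1.497% to 0.906%, 0.504% and 0.872%. The share of cells called as doublets was 16.2%, 12.8% and 20.5% without Stra8, highest at 1-2 Stra8 UMIs (20.2%, 18.2% and 32%), and 6.90%, 0% and 5.31% at 10 or more. The summed level of 7 endothelial markers was 118 to 141 CPM without Stra8 and 68.5 to 72.9 CPM with it, and Pecam1 (CD31), 1 of these 7, is also known from early germ cells. The summed level was, for 8 epithelial markers, 105 to 123 against 79.2 to 98.4 CPM, and for 6 mesonephric tubule markers 126 to 131 against 75.2 to 82.1 CPM. The 6 Sertoli markers went the other way, with 20.5 to 25.7 CPM without Stra8 and 30.2 to 45.1 CPM with it. The sums overlapped for pre-granulosa (121 to 296 against 125 to 286 CPM), stromal (108 to 190 against 71.0 to 190 CPM), macrophage (12.8 to 60.8 against 19.5 to 28.9 CPM) and steroidogenic markers (0 to 6.76 against 2.35 to 16 CPM). Red blood cell markers were 1935 CPM without Stra8 in lot 26 and 2110 CPM with it in lot 29. With called doublets removed, 474 genes rose and 531 fell, and the same 7 members passed. The part of depth and of mitochondrial share in these results was not tested beyond the thinning and a restriction to cells of 15000 to 30000 UMIs, given with the alternatives.

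The likeness of each gene to Stra8 was described by Pearson's r of log(1 + UMIs) across thinned germ cells within each lot, over 9289 genes, ranked by the lowest of the 3 values. Cells of 1 lot share a library, and no p is given. Sycp3 ranked 2 (r = 0.531 to 0.617), Smc1b 3 (0.525 to 0.661), Rec8 5 (0.494 to 0.544) and Sycp1 7 (0.435 to 0.528). The non-members most like Stra8 were Tex101 (0.546 to 0.604), which ranked 1, and Gm1564, Stk31, Slc25a31, Taf7l, Map7d2, Cited1 and 4930447C04Rik. Hormad1, Sycp2, Stag3 and Dmc1 were lower, with r of 0.314 to 0.354, 0.227 to 0.324, 0.215 to 0.326 and 0.197 to 0.292, and Spo11 fell under the minimum of 0.05 UMIs per cell. Sparse genes cannot reach a high r. Among the members themselves, Sycp1 and Sycp3 had an r of 0.542 to 0.581 and Sycp3 and Smc1b 0.468 to 0.623, whereas Rec8 with Stag3, its partner in the cohesin ring, had 0.141 to 0.213.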

How the data were processed

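Single-cell RNA of 3 lots (26, 29 and 30) was analysed. The authors found barcodes with UMI-tools, aligned reads to GRCm38 with STAR 2.7, kept unique reads, counted them with featureCounts 2.0.1 and deposited UMI counts without normalization. The annotation release and the strand setting are not given in the sources used here. Barcodes of 200 to 9000 genes and at most 10% mitochondrial UMIs were kept. Doublets were called with Scrublet in scanpy 1.11.5 (expected rate 8%) and kept, except in an alternative. Clusters (Seurat 5.3.0, 2000 variable genes without members and listed genes, 50 principal components, resolution 0.8) were named from marker lists, and a cluster led by chromaffin genes was left unnamed by a rule written after those genes were seen. UMI sums per lot and side were tested with edgeR 4.0.16 in R 4.3.3 by its quasi-likelihood test, after TMM scaling and the default filter on low counts, with p-values adjusted by Benjamini-Hochberg across every gene in the fit (threshold 0.05). The procedure was tested on simulated data with independent sums and no lot effect, so that test does not cover the pairing of the sums. DESeq2 1.42.0 was an alternative. Dazl and Ddx4 had no test against other cells, nor Stra8 in its own split.

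Both sums of a lot come from 1 pool of cells and so are paired. Their deviations from the side means correlated with r of 0.259 to 0.315 (germ against other cells) and 0.193 to 0.289 (Stra8 split). The main fit has no lot term, and an alternative blocks on the lot. The lots are separate pools of embryos, so p-values measure the spread between pools together with counting error. The Stra8-negative sums held only 39 to 74 cells per lot.

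The members and lists were chosen with earlier results of these data known. Named are the members, the mitotic cohesin counterparts, Dazl and Ddx4, and at most 4 called genes per list with the smallest adjusted p. Also named are the 8 non-members most like Stra8 and the 5 highest and 5 lowest called genes of the Stra8 split. The latter had at least 20 CPM in every sum of their higher side. Zglp1, Dppa3, Dppa5a and Pou5f1 in the Stra8 split were chosen after their values were seen. Gene positions come from GENCODE (GRCm38) and promoters from RefSeq (GRCm38.p6).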

Additional observations from a re-analysis of the deposited data

Results flagged for a closer look

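Barcodes outside the cell filter were not used in any comparison. Of them, 10 passed the Dazl and Ddx4 gate and held Stra8, which is given as a count only. They were 6 of the 52 excluded barcodes of lot 26, 4 of 66 in lot 30 and 0 of 14 in lot 29, and each had over 9000 genes. Their medians were 14 and 14.5 Stra8 UMIs and 89334 and 96201 UMIs in all, in lots 26 and 30. Whether they are single cells was not tested.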

How the results depend on the processing

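Against other cells, all 10 members stayed higher and called under each of the 13 alternatives, and the counts of called genes stayed within 1.5 times. Between germ cells with and without Stra8, 393 genes rose and 408 fell. The counts were 759 and 836 with the lot as a replicate block, 673 and 695 unthinned, 199 and 225 at 5000 UMIs, and 613 and 616 for 3 or more Stra8 UMIs against none. They were 210 and 254 for cells of 15000 to 30000 UMIs, an alternative chosen after seeing the data, as were restriction to the germ-like cluster and leaving out germ-like cells outside the gate. DESeq2 gave 233 higher, and no filter on low counts 588 higher and 376 lower with the median of all genes at 0.15. Leaving out 1 lot gave 67 to 326 higher and 64 to 408 lower, with the lowest counts without lot 26. Sycp1, Sycp2, Sycp3, Rec8, Smc1b, Hormad1 and Rad21 kept their direction and call under all 15 alternatives. Dmc1 was not called without lot 26 or at 15000 to 30000 UMIs (1.31, adjusted p = 0.147, edgeR). Stag3 was called under 5 alternatives (edgeR adjusted p = 0.00243 to 0.0495 there). Spo11 had an adjusted p under only 9 of the 15 alternatives, and fell under the count filter without lot 30, among others. It turned to -0.11 without lot 26 (edgeR adjusted p = 0.97) and was at 0.43 without lot 29. The block changed no other call of a member. The cause of these changes was not tested. The share of the escaped germ cells with Stra8, 88.1%, became 92.2% unthinned, 80.1% at 5000 UMIs and 86.7% with the gate at 2 Dazl UMIs. Rec8 in pre-granulosa-like cells and Stag3 and Dmc1 in stromal-like cells moved by less than 1 SD at clustering resolutions of 0.4 and 1.2. Spo11 and Dmc1 are limited by their few UMIs, and the Stra8-negative side by 39 to 74 cells per lot.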
